A study of Homo sapiens with 6 samples.

Results

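The chemokines described here are 10 small secreted or membrane-tethered proteins encoded by CCL2, CCL20, CCL28, CXCL1, CXCL2, CXCL3, CXCL5, CXCL8, CXCL16 and CX3CL1, taken by gene symbol from a table of 17280 genes. They were chosen by measured values of these libraries, since CCL2 had the highest log2 fold change of LF3 over CON among tested genes and CXCL1 and CXCL2 ranked 5 and 11, so their differences between LF3 and CON are given as a description, with no p-value, and the counts of calls further on support nothing about them. All 10 have a row in the table. Of these, 9 averaged 1 TPM or more across the 6 libraries and entered the model fitted to all genes, and CXCL5 did not.

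The study sequenced RNA from CAL-27, an established line of human tongue squamous cell carcinoma, grown as floating spheres, a culture that enriches for stem-like cells. The 3 libraries titled LF3 come from sphere cells that the series design describes as exposed for 24 h to LF3, an inhibitor of the contact between beta-catenin and TCF4, while the treatment field of the same libraries names elesclomol with copper, a copper ionophore, for 24 h. The 3 libraries titled CON are labelled as normal control, and the sources used here do not say whether they received a vehicle. Which agent the LF3 libraries received cannot be told apart from the labels, so each direction below belongs to the libraries titled LF3. No label says that replicates came from separate cultures, so an adjusted p rests on the variation among the 6 libraries, and that variation may be technical.

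Chemokines bind G protein-coupled receptors on leukocytes and guide their migration. CC chemokines such as CCL2 draw monocytes and CCL20 draws dendritic and T cells, while CXC chemokines that carry the amino acids glutamate, leucine and arginine before their first cysteines (CXCL1, CXCL2, CXCL3, CXCL5 and CXCL8) draw neutrophils through CXCR2. Epithelial and carcinoma cells make them on exposure to IL-1 or TNF, largely through NF-kappaB and AP-1 binding near the gene starts and through control of mRNA decay. CXCL16 and CX3CL1 are made as membrane proteins and released by the proteases ADAM10 and ADAM17.

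Values are TPM, the authors' length-corrected transcript abundance on a scale with the same total in every library, so levels of different genes can be set side by side but the depth behind them is unknown. The LF3 libraries listed 1948 to 1986 genes at 0 and the CON libraries 1359 to 1407, so a 0 in LF3 is not particular to the genes named below. Among squamous epithelial markers, the basal keratin gene KRT5 averaged 454 TPM in LF3 and 102 TPM in CON, and SFN (stratifin) 608 TPM in LF3 and 339 TPM in CON. The keratin gene KRT17 was lower, at 58.0, 59.4 and 59.0 TPM in LF3 and 192, 198 and 209 TPM in CON, as was PERP, a desmosome-associated protein gene, at 196 TPM in LF3 and 302 TPM in CON. The 10 epithelial markers summed to 1890 to 1930 TPM in LF3 and 1500 to 1520 TPM in CON, although the other basal keratin gene KRT14 stayed below 1 TPM in every library. Of the 9 tested, 5 were called higher and 3 lower as deposited, but 3 and 5 with median-ratio scaling and 2 and 6 with quantile normalization. Of 10 leukocyte markers, 8 have a row and summed to 52.5 to 56.3 TPM in LF3 and 342 to 355 TPM in CON, most of it from the lysosomal gene CD68. Another macrophage marker, CSF1R, was at 5.10 TPM in LF3 and 13.2 TPM in CON, whereas the monocyte marker CD14 was higher, at 2.32, 1.91 and 1.73 TPM in LF3 and 0.51, 0.61 and 0.96 TPM in CON. The leukocyte genes PTPRC and CD3D were listed at 0 in each LF3 library, and PTPRC reached at most 0.02 TPM and CD3D 0.72 TPM in CON. The 6 fibroblast markers summed to 5.24 to 5.65 TPM in LF3 and 12.2 to 13.3 TPM in CON, with COL1A1 at 4.31 TPM in LF3 and 9.27 TPM in CON, LUM at 0.620 TPM in LF3 and 2.52 TPM in CON, and DCN and COL3A1 at 0 in LF3. The 4 endothelial markers summed to 6.24 to 7.26 TPM in LF3 and 0.41 to 0.57 TPM in CON, mostly from CDH5 in LF3, while KDR was at 0 in LF3. The part of these marker differences in the chemokine levels was not tested. In bulk RNA a change in the number of cells that make a transcript and a change in RNA per cell cannot be told apart.

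CCL2, the main attractant of monocytes, was the most abundant of the 10 transcripts in LF3 and the fifth in CON. CCL2 stood at 2097, 2050 and 1831 TPM in the LF3 libraries and at 9.79, 8.12 and 7.98 TPM in the CON libraries. Every LF3 library lay far above every CON library, and LF3 replicate 3 was the lowest of its group. The log2 fold change was 7.70 ± 0.073 (limma standard error, on the log2(TPM + 1) scale), the first of 12195 tested genes by size. No 50-base window of the CCL2 transcripts in GENCODE release 29 occurred in a transcript of another gene (0 of 1984), so reads of this length would not be shared with a paralog there. CCL7, CCL11 and CCL8, the chemokine genes that come next after CCL2 on chromosome 17, stayed below 1 TPM. CCL7 stood at 0.36, 0.37 and 0.35 TPM in LF3 and 0, 0.2 and 0 TPM in CON, CCL11 at 0, 0 and 0.13 TPM in LF3 and 0 in each CON library, and CCL8 at 0, 0.33 and 0 TPM in LF3 and 0 in each CON library.

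**Figure D1:**
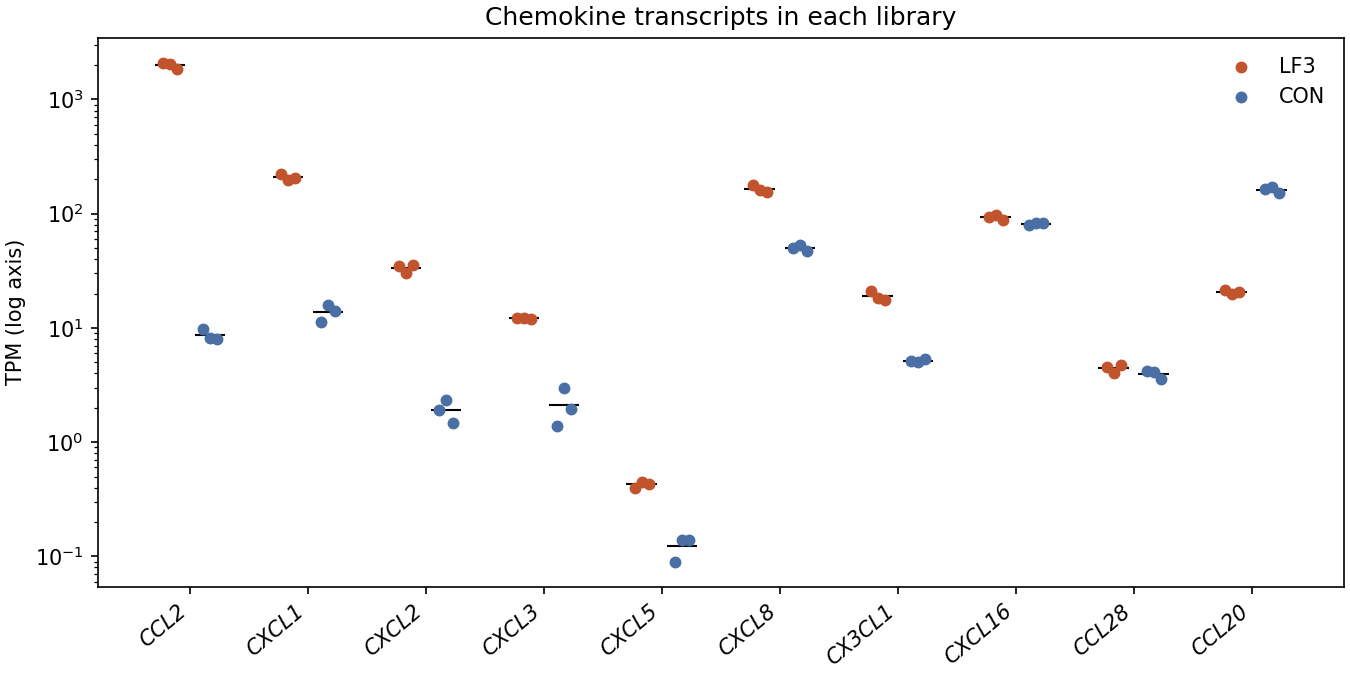
TPM of the 10 chemokine genes in each library on a logarithmic axis, with LF3 libraries left of CON libraries, each point a library and each bar a group mean of 3. The LF3 points of CCL2 lie between 1831 and 2097 TPM and its CON points between 7.98 and 9.79 TPM, while CCL20 is the gene whose LF3 points lie below its CON points.

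The neutrophil attractants CXCL1, CXCL2 and CXCL3 are close paralogs, and each was higher in all LF3 libraries than in any CON library. Their promoters are shown because they are much alike and carry the same letters at nearly the same distance from the start. Each line gives 300 bases of RefSeq's GRCh38.p14, from 250 bases before the transcript start to 50 after it, 5′ to 3′ on the gene's strand, with capitals for matches on either strand to GGNNNTTCC, a loose form of the NF-kappaB site. CXCL1 lies at chr4:73869143-73869442 on the plus strand, CXCL2 at chr4:74099146-74099445 on the minus strand and CXCL3 at chr4:74038640-74038939 on the minus strand.
CXCL1: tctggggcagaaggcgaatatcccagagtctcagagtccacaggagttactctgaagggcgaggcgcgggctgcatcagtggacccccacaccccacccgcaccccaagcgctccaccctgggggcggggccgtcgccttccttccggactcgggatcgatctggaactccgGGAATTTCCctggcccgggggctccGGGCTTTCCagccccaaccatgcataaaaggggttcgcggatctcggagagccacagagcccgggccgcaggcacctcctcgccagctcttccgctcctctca
CXCL2: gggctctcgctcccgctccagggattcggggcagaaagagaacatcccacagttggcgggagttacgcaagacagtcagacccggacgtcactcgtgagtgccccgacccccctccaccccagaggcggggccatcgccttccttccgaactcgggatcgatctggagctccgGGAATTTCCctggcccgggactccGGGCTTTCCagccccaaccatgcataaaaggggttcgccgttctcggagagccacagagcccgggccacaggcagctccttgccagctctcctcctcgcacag
CXCL3: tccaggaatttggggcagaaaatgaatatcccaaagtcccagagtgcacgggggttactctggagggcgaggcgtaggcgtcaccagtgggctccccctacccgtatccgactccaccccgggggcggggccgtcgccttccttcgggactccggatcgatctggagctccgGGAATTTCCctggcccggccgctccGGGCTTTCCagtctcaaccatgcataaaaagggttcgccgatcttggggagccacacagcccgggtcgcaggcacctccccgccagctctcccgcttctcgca

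Aligned end to end, the CXCL1 and CXCL3 windows were identical at 82.5% of 308 aligned positions, CXCL2 and CXCL3 at 73.8% of 320 and CXCL1 and CXCL2 at 71.9% of 334. All 3 windows hold GGAATTTCC, starting at position -78 in CXCL1, -77 in CXCL2 and -78 in CXCL3, counting the first transcribed base as 0, and GGGCTTTCC at position -53 in each. The transcripts are alike as well: 12.5% of the 50-base windows of CXCL2, 6.01% of those of CXCL3 and 4.81% of those of CXCL1 occurred in another gene's transcripts, in each case those of the other members of this trio. Reads from these stretches could be counted for either gene, and the sources used here do not say how the authors assigned them.

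CXCL1 stood at 222, 199 and 206 TPM in LF3 libraries and 11.3, 15.8 and 14.1 TPM in CON libraries, a log2 fold change of 3.85 ± 0.097. CXCL2 stood at 35.0, 30.1 and 35.2 TPM in LF3 and 1.91, 2.36 and 1.48 TPM in CON, a log2 fold change of 3.57 ± 0.11. CXCL3 stood at 12.3, 12.1 and 11.9 TPM in LF3 and 1.38, 3 and 1.94 TPM in CON, a log2 fold change of 2.11 ± 0.15. The groups did not overlap for any of the 3 genes. By ratio of means, CXCL2 was 17.4-fold, CXCL1 15.2-fold and CXCL3 5.74-fold higher in LF3, and with a pseudocount of 0.1 the log2 fold changes of CXCL2 and CXCL3 were 4.08 and 2.53. The ratio of CXCL1 to CXCL2 was 5.85 to 6.60 in LF3 and 5.90 to 9.55 in CON, so those ranges overlapped. The ratio of CXCL2 to CXCL3 was 2.48 to 2.97 in LF3 and 0.763 to 1.38 in CON, ranges that did not overlap. That of CXCL1 to CXCL3 was 16.4 to 18.1 in LF3 and 5.26 to 8.17 in CON, also without overlap. In CON, CXCL2 and CXCL3 stood at or below 3 TPM at unknown depth. As the transcripts also share stretches, the CON ratios are uncertain.

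CXCL8, also called interleukin 8, was already abundant in CON libraries. It stood at 177, 160 and 156 TPM in LF3 and 50.2, 52.9 and 46.9 TPM in CON, a log2 fold change of 1.70 ± 0.059. All LF3 libraries lay above all CON libraries, with a 3.29-fold ratio of means. Its promoter is shown beside that of CCL20, the chemokine lower in LF3, because the members of this pair, both abundant in one of the groups, differed in direction. CXCL8 lies at chr4:73740319-73740618 and CCL20 at chr2:227813592-227813891, both on the plus strand of GRCh38.p14, with the same 300-base window and capitals as above.
CXCL8: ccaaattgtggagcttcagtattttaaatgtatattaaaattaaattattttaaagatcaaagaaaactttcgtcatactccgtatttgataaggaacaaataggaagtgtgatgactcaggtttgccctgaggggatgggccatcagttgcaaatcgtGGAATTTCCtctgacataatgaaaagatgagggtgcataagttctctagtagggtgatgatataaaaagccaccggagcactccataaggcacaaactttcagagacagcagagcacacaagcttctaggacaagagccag
CCL20: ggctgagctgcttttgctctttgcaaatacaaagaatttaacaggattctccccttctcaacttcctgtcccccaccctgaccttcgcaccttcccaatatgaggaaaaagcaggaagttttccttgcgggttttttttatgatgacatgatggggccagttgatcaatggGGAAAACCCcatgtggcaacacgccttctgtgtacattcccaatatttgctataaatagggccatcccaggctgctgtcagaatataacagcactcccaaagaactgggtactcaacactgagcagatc

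The CXCL8 window holds GGAATTTCC starting at position -91, the AP-1 letters TGANTCA as TGACTCA at position -137 and, on the other strand, the TCF core CTTTGAT, read on the gene strand as ATCAAAG at position -194. The CCL20 window holds GGAAAACCC, a match on the other strand, at position -79. It holds no match to TGANTCA or CTTTGAT, and both CXCL8 and CCL20 hold TATAAA. The windows of CXCL1, CXCL2 and CXCL3, genes also higher in LF3, hold no match to TGANTCA or CTTTGAT either. The part of these letters in the direction of any chemokine was not tested.

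CXCL5, which lies beside CXCL3, stayed below 1 TPM. It stood at 0.40, 0.45 and 0.43 TPM in LF3 and 0.09, 0.14 and 0.14 TPM in CON, below the filter, so it was not tested. The LF3 libraries lay above the CON libraries on this low scale, and its log2 fold change of 0.345 became 1.25 with a pseudocount of 0.1. RefSeq promoter windows were found for 7 of the 10 genes, 8 windows in all since CCL28 has 2. None was found for CCL2, CXCL16 and CX3CL1, so the counts below leave them out. GGAATTTCC occurred in 5 of the 8 (those of CXCL1, CXCL2, CXCL3, CXCL5 and CXCL8), against 0.461% of all 35116 windows and 0.443% of the windows of tested genes. These letters were chosen after the windows had been read, and the windows of CXCL1, CXCL2 and CXCL3 are much alike, so their matches are not independent. GGNNNTTCC occurred in 6 of the 8, against 20.1% of all windows and 23.0% of those of tested genes. A looser 10-letter NF-kappaB form occurred in 7 of the 8, against 58.7% of all and 72.2% of tested genes' windows. TGANTCA and CTTTGAT occurred in 1 each, against 7.71% and 2.62% of all windows and 5.36% and 1.44% of tested genes' windows. TATAAA occurred in 2 (11.5% of all, 6.34% of tested genes' windows), and the loose C/EBP form TTNNNNAA in 5 (53.7% of all, 42.0% of tested genes' windows). The 9-letter and 10-letter NF-kappaB forms overlap, all forms were sought on both strands, and a match is a run of letters and not a measured binding site.

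CXCL8, CXCL1, CXCL5, CXCL3 and CXCL2 belong to a run of 9 neighbouring protein-coding genes on chromosome 4 in RefSeq, all of them CXC chemokines, of which 8 have a row. The genes with a row that lie between them stayed below 1 TPM. CXCL6 reached 0.08 TPM in 1 LF3 library and 0 elsewhere. PF4, platelet factor 4, stood at 0.37, 0.37 and 0.19 TPM in LF3 and 0, 0 and 0.21 TPM in CON. PPBP, pro-platelet basic protein, was listed at 0 in LF3 libraries and at 0.1 TPM in each CON library. The level of the 5 neutrophil attractants together was 420 ± 24.0 TPM in LF3 and 67.9 ± 5.49 TPM in CON (SD, n = 3 each).

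**Figure D2:**
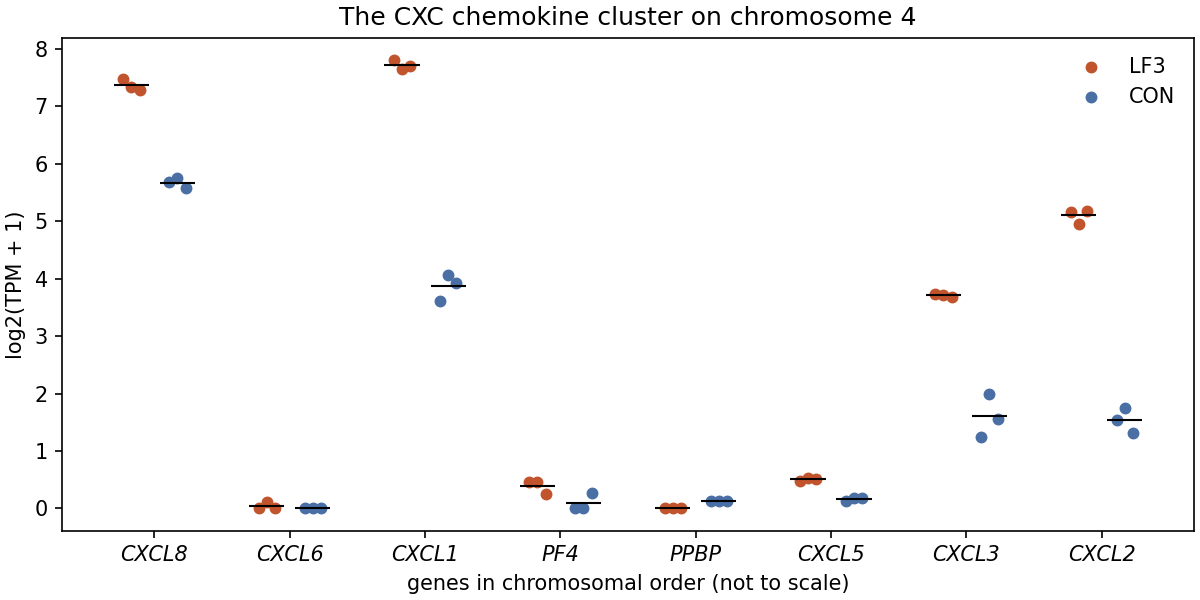
log2(TPM + 1) in each library for 8 genes of the chemokine cluster on chromosome 4, in chromosomal order and not to scale, with LF3 left of CON and bars at the mean of 3 libraries. CXCL8, CXCL1, CXCL3 and CXCL2 are higher in LF3, whereas CXCL6, PF4, PPBP and CXCL5 stay below 1 on this scale in both groups.

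CCL20, the ligand of CCR6, differed in the opposite direction. It stood at 21.65, 19.66 and 20.61 TPM in LF3 and 165, 171 and 151 TPM in CON, a log2 fold change of -2.91 ± 0.057. Every LF3 library was below every CON library, and the CON mean was 7.86 times the LF3 mean. None of its 1588 transcript windows of 50 bases occurred in another gene. CCL28, a mucosal chemokine that binds CCR10 and CCR3, stood at 4.59, 3.99 and 4.73 TPM in LF3 and 4.19, 4.09 and 3.54 TPM in CON. Its groups overlapped, and its log2 fold change of 0.14 ± 0.094 became -0.0825 after median-ratio rescaling.

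The membrane-tethered chemokines differed from each other. CX3CL1, or fractalkine, stood at 21, 18.15 and 17.47 TPM in LF3 and 5.16, 5.04 and 5.32 TPM in CON, a log2 fold change of 1.68 ± 0.079 with groups apart. Its neighbours on chromosome 16 are the chemokine genes CCL22 and CCL17. CCL22 had 1.47, 2.16 and 1.75 TPM in LF3 and 2.30, 2.75 and 2.97 TPM in CON, and CCL17 had 0.28 TPM in 1 LF3 library and 0 in the others. CXCL16, the ligand of CXCR6 and a scavenger receptor, stood at 93.0, 98.3 and 88.5 TPM in LF3 and 79.2, 83.5 and 82.9 TPM in CON. Those libraries did not overlap as deposited, but the log2 fold change of 0.19 ± 0.048 turned to -0.0859 with median-ratio rescaling and to -0.14 with quantile normalization, so the direction of CXCL16 depends on the scaling. Of its 2788 transcript windows of 50 bases, CXCL16 shared 66 with other genes, among them 36 with MED11, the gene beside it.

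In the model of all genes, 8 of the 9 tested chemokines were called (limma, Benjamini-Hochberg adjusted p under 0.05), where 85.5% of tested genes were, and 7 were called with at least a 2-fold difference, where 31.9% were. By direction, 7 were called higher in LF3, where 53.2% of tested genes were, and 1 was called lower, where 32.3% were. Groups did not overlap in 8 of the 9, against 86.2% of tested genes. The chemokines were chosen with this contrast known, so nothing is read from these counts. Over all tested genes the median log2 fold change was 0.24 as deposited, -0.0055 after median-ratio rescaling (libraries divided by their median ratio to each gene's geometric mean) and 0.026 after quantile normalization. All calls split into 6489 higher and 3938 lower as deposited, 5195 and 5205 with median-ratio rescaling, and 5351 and 5059 once quantile-normalized. Median-ratio rescaling left 6 chemokines called higher and 1 lower, and quantile normalization 6 and 2, with CXCL16 the gene that moved in both. The log2 fold changes of CCL2, CXCL1, CXCL2, CXCL3, CXCL8, CX3CL1 and CCL20 kept their sign in all 16 alternative settings.

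**Figure D3:**
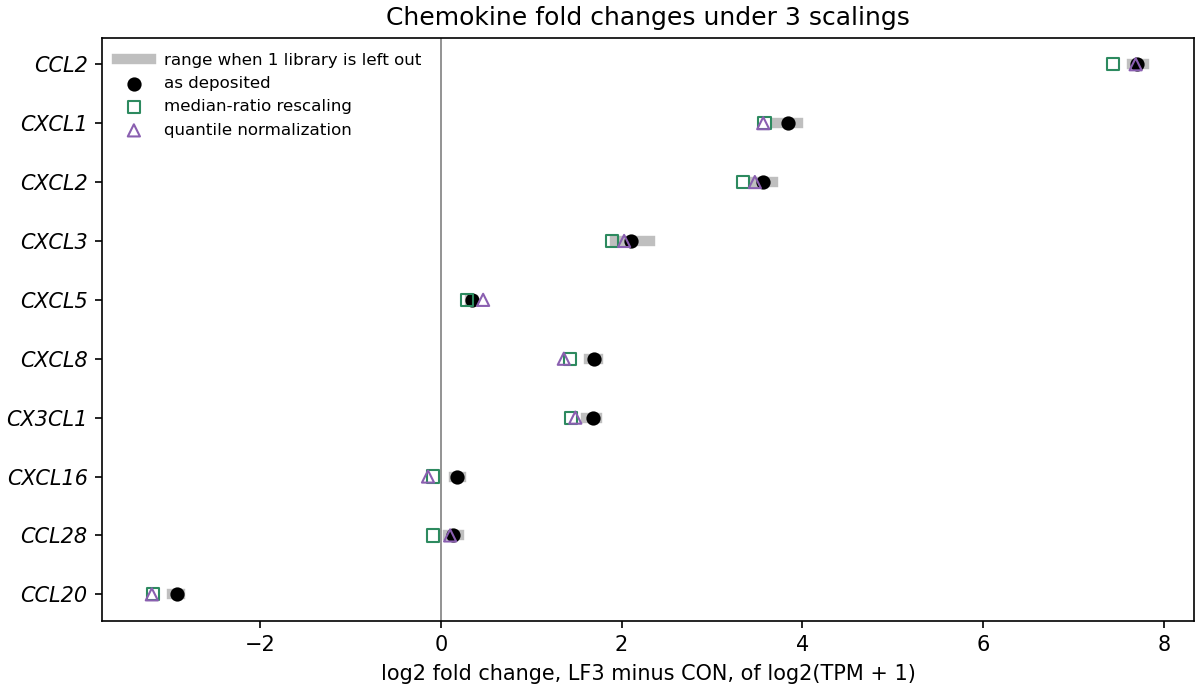
Log2 fold change (LF3 minus CON) of log2(TPM + 1) for each chemokine as deposited and under median-ratio and quantile scaling, with a grey bar for the range when 1 library is left out. CCL2 stays between 7.65 and 7.78 when a library is left out, and CXCL16 lies below 0 under both scalings, as CCL28 does under median-ratio scaling.

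The make-up of the chemokine RNA differed accordingly. The 10 genes summed to 2684, 2592 and 2372 TPM in LF3 libraries and 328.3, 345.9 and 314.9 TPM in CON libraries. CCL2 made up 78.1 ± 0.942% of that sum in LF3 and 2.62 ± 0.326% in CON (SD, n = 3 each). CCL20 made up 0.811 ± 0.0552% in LF3 and 49.2 ± 1.24% in CON. CXCL16 held 3.66 ± 0.174% in LF3 and 24.9 ± 1.26% in CON, and CXCL8 held 6.45 ± 0.228% in LF3 and 15.2 ± 0.236% in CON, although the level of CXCL8 was higher in LF3. Without CCL2 the other 9 genes summed to 557 ± 26.3 TPM in LF3 and 321 ± 15.6 TPM in CON.

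By level, the order in LF3 was CCL2, CXCL1, CXCL8, CXCL16, CXCL2, CCL20, CX3CL1, CXCL3, CCL28 and CXCL5, and CCL20 and CX3CL1 were the neighbours in that order whose libraries overlapped. In CON it was CCL20, CXCL16, CXCL8, CXCL1, CCL2, CX3CL1, CCL28, CXCL3, CXCL2 and CXCL5, where the libraries of CXCL3 and CXCL2 overlapped.

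**Figure D4:**
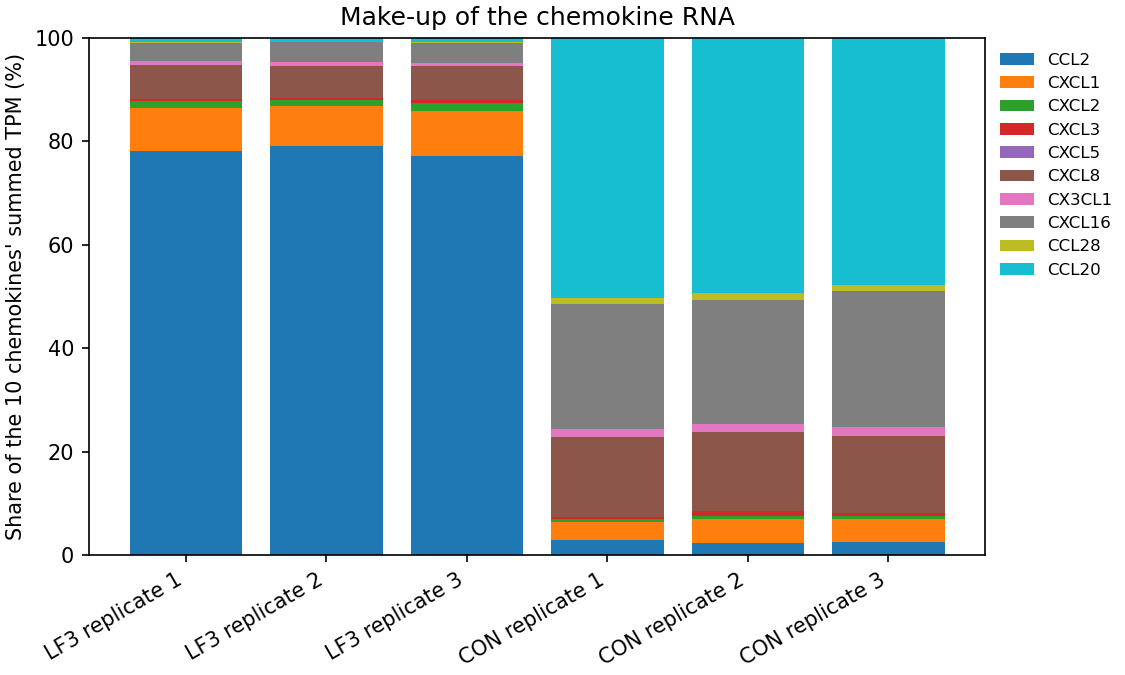
Share of the summed TPM of the 10 chemokines, in percent, that each gene holds in each LF3 library (left) and each CON library (right). CCL2 fills 78.1% of the LF3 bars on average, and CCL20 and CXCL16 fill 49.2% and 24.9% of the CON bars.

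The remaining chemokine ligands stayed at low levels. Of 38 further ligand genes looked for, 22 have a row, 7 were tested, 1 was called higher and 5 lower (1 and 6 with median-ratio scaling). For this and the lists below, 53.2% of all tested genes were called higher and 32.3% lower. Of the 7 ligands 85.7% were called, where 85.5% of all tested genes were, so nothing is read from this count. Of the 7, CXCL10 and CCL26 averaged under 1 TPM in one group and passed the filter only through the group where they were high, so their calls carry no weight and no p is given. CXCL10, an interferon-induced T-cell attractant, stood at 4.71, 2.51 and 3.10 TPM in LF3 and 1, 1.04 and 0.8 TPM in CON, with no overlap. CXCL11, its neighbour on chromosome 4 and a ligand of the same receptor, had 5.09 ± 0.675 TPM in LF3 and 5.42 ± 0.164 TPM in CON (here and below, TPM ± SD with n = 3 each and log2 fold change ± limma standard error), a log2 fold change of -0.081 ± 0.095 (limma adjusted p = 0.437) that was called lower after median-ratio rescaling (-0.31). XCL1, or lymphotactin, fell to 3.69 ± 0.589 TPM in LF3, against 7.63 ± 0.747 TPM in CON (limma adjusted p = 1.35e-05). CCL5, CCL22 and CXCL14 were also called lower, with log2 fold changes of -0.74, -0.40 and -0.46. CCL26, whose call carries no weight, had a log2 fold change of -1.09. CCL5, CCL22, CCL26 and CXCL14 all stayed below 4 TPM in every library.

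Among the signalling receptors of the 10 chemokines with a row in the table, CXCR2 passed the filter and CCR2, CCR6, CCR10, CXCR1 and CXCR6 did not. Of 23 receptor genes looked for, 18 have a row and 5 were tested, with 2 called higher and 3 lower (2 and 3 with median-ratio scaling). Of the 5, 4 (CXCR2, CXCR4, ACKR3 and ACKR4) averaged under 1 TPM in one group and passed the filter only through the other, where they were high, so their values are given with no p and nothing is read from that count. CXCR2, the receptor of the neutrophil attractants, stood at 1.36, 1.65 and 1.43 TPM in LF3 and 0.85, 0.65 and 0.50 TPM in CON. CCRL2, which binds chemerin and does not signal as chemokine receptors do, rose to 38.7 ± 2.25 TPM in LF3, against 3.76 ± 0.199 TPM in CON (limma adjusted p = 2.38e-11). CXCR4, the receptor of CXCL12, was listed at 0 in each LF3 library and at 2.58, 3.03 and 2.46 TPM in CON. ACKR3, a scavenger of CXCL11 and CXCL12, had 0.577 ± 0.133 TPM in LF3 and 8.89 ± 0.133 TPM in CON, and ACKR4, a scavenger of CCL19 and CCL21, had 0.357 ± 0.125 TPM in LF3 and 1.90 ± 0.105 TPM in CON. The partner receptors of other chemokines lay below the filter and are named for that partnership. CCR2, which binds CCL2, reached at most 0.1 TPM, CCR6, which binds CCL20, at most 0.11 TPM, and CXCR1, a second receptor of CXCL8, at most 0.33 TPM. CXCR6, which binds CXCL16, stood at 0, 0.17 and 0.22 TPM in LF3 and 0.29, 0.31 and 0.55 TPM in CON. CCR10, which binds CCL28, stood at 0, 0 and 0.12 TPM in LF3 and 1.07, 0.74 and 1.36 TPM in CON.

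The genes that release membrane-tethered chemokines or trim chemokines numbered 6, all tested, of which 2 were called higher and 3 lower (median-ratio scaling gave 1 and 3). Their median log2 fold change was -0.047. TIMP3, an inhibitor of ADAM17, fell to 1.94 ± 0.237 TPM in LF3, against 9.46 ± 0.705 TPM in CON (limma adjusted p = 9.55e-09). RHBDF1 and RHBDF2 encode iRhoms, which ADAM17 needs to reach the cell surface. RHBDF1 had a log2 fold change of -0.90 ± 0.062 and RHBDF2 one of 0.60 ± 0.054. ADAM10 was higher as deposited, at 80.5 ± 9.39 TPM in LF3 and 61.2 ± 4.47 TPM in CON, and lost its call after both scalings. ADAM17, named after its value was seen because it sheds CX3CL1 and CXCL16, was lower, at 36.2 ± 1.36 TPM in LF3 and 41.7 ± 1.20 TPM in CON (limma adjusted p = 0.00307).

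NF-kappaB genes, which act upstream of chemokine transcription, moved in both directions. Of 17 tested, 8 were called higher and 6 lower (8 and 9 with median-ratio scaling), and the median log2 fold change was 0.088. NFKB1, which encodes the p105 precursor of p50, rose to 36.8 ± 1.87 TPM in LF3, against 10.2 ± 0.478 TPM in CON (limma adjusted p = 5.35e-10). RELA, the p65 subunit, fell to 113 ± 3.46 TPM in LF3, against 173 ± 5.80 TPM in CON (limma adjusted p = 9.74e-08). The other subunit genes RELB, NFKB2 and REL were also called lower, with log2 fold changes of -0.60, -0.35 and -0.37. NFKB1 was thus the subunit gene that differed in direction from the rest. The inhibitor genes NFKBIA and TNFAIP3, themselves NF-kappaB targets, rose, with NFKBIA at 262 ± 8.43 TPM in LF3 and 84.2 ± 2.46 TPM in CON and TNFAIP3 at 136 ± 2.67 TPM in LF3 and 66.4 ± 0.528 TPM in CON. CHUK, the kinase IKK-alpha, had a log2 fold change of 1.36 ± 0.061.

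Cytokines that induce chemokines, their receptors and cytokines made alongside them numbered 17 tested, of which 12 were called higher and 5 lower (also with median-ratio scaling). Their median log2 fold change was 0.74. IL1B rose to 325, 291 and 270 TPM in LF3, against 135, 131 and 133 TPM in CON, and IL1A to 206, 182 and 152 TPM in LF3, against 115, 125 and 113 TPM in CON (limma adjusted p = 9.47e-09 and 7.92e-05). TNF, the other inducer named above, rose to 54.8 ± 2.73 TPM in LF3, against 30.3 ± 1.10 TPM in CON. IRAK1, a kinase of IL-1 signalling, had a log2 fold change of 2.15 ± 0.044. IL1RAP, the co-receptor that IL-1 needs, fell to 26.6 ± 1.57 TPM in LF3, against 146 ± 7.70 TPM in CON (limma adjusted p = 2.87e-11). The IL6-family cytokines IL11 and LIF had log2 fold changes of -2.31 ± 0.068 and -1.19 ± 0.044. TRAF6 and IL1RN were also called lower, with log2 fold changes of -1.28 ± 0.053 and -0.49 ± 0.14.

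AP-1 and C/EBP factors, which also bind chemokine promoters, were mostly lower. Of 10 tested, 2 were called higher and 8 lower (2 and 8 with median-ratio scaling), and the median log2 fold change was -1.64. Of all tested genes, 32.3% were called lower. The 2 higher were FOSL1, at 220 ± 22.4 TPM in LF3 and 94.5 ± 2.96 TPM in CON, and CEBPD, at 30.9 ± 3.91 TPM in LF3 and 5.81 ± 0.771 TPM in CON. Among those lower, FOSB averaged under 1 TPM in LF3 and passed the filter only through CON. ATF3, a stress-induced factor, fell to 15.8 ± 0.497 TPM in LF3, against 132 ± 1.90 TPM in CON, and log2 fold changes were -1.87 ± 0.044 for JUN, -1.85 ± 0.051 for JUNB and -1.44 ± 0.047 for JUND (limma adjusted p = 3.08e-11, 9.26e-11 and 3.01e-10). Among 10 factors that control the decay of cytokine mRNA, 6 were called higher and 3 lower (6 and 4 with median-ratio scaling), and the median log2 fold change was 0.58. ZFP36, or tristetraprolin, which destabilises AU-rich transcripts, fell to 9.81 ± 0.639 TPM in LF3, against 44.2 ± 1.38 TPM in CON (limma adjusted p = 1.63e-10). ZC3H12A, or regnase-1, a nuclease that cleaves inflammatory mRNA, rose to 79.6 ± 2.70 TPM in LF3, against 33.5 ± 1.33 TPM in CON (limma adjusted p = 1.29e-09). KHSRP and HNRNPD, both AU-rich element binders, had log2 fold changes of 1.35 ± 0.036 and 1.68 ± 0.052. The part of these genes in the chemokine levels was not tested.

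**Figure D5:**
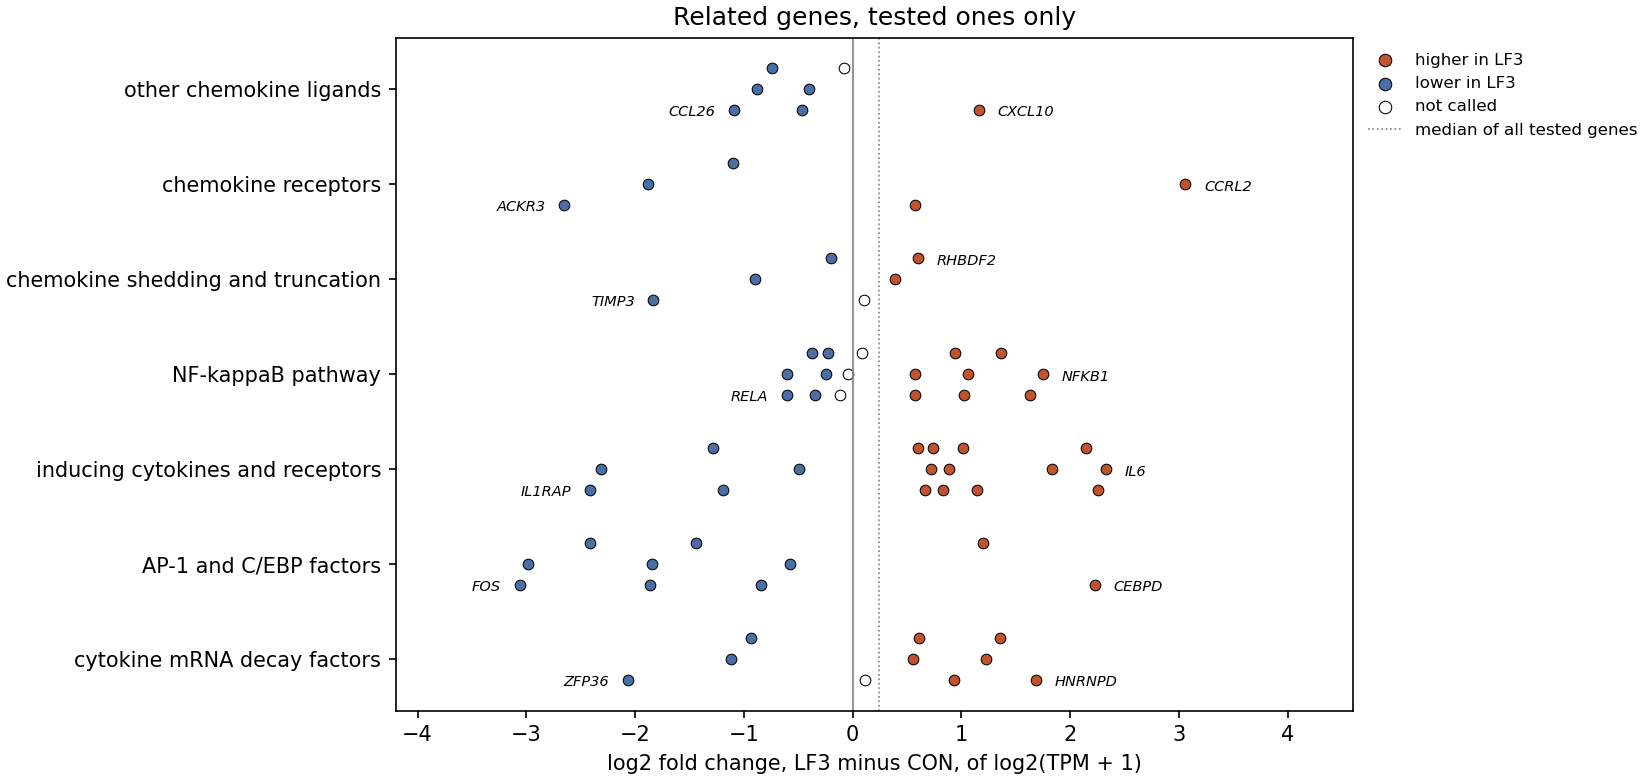
Log2 fold change (LF3 minus CON) of log2(TPM + 1) for the tested genes of 7 lists related to chemokines, each point a gene, coloured by its limma call, with the lowest and highest gene of each list named. AP-1 and C/EBP factors lie mostly left of 0, from FOS to CEBPD, and the cytokine list spreads from IL1RAP to IL6, while the dotted line marks the median of all tested genes at 0.24.

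For CCL2, CXCL1 and CXCL8 the 3 genes with the nearest profiles were sought among all tested genes, by Euclidean distance between gene-centred log2(TPM + 1) values over the 6 libraries. For CCL2 they were ZNF114 at a distance of 2.22, ZBED6CL at 4.11 and RRS1 at 4.49. CXCL1 lay near TFRC, PRMT6 and CTPS1, at 0.339, 0.387 and 0.395, and CXCL8 near UBLCP1, BRIX1 and CEP41, at 0.101, 0.104 and 0.105. Their log2 fold changes were 5.9, 4.35 and 4.03 beside CCL2, 3.76, 3.8 and 3.7 beside CXCL1, and 1.73, 1.76 and 1.75 beside CXCL8. With the libraries of a group this close, the distance mostly ranks genes by nearness in fold change. No chemokine was among the genes named, and nothing about shared control is read from these lists.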

How the data were processed

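Gene expression was measured in 6 RNA-seq libraries of CAL-27 spheres, 3 titled LF3 and 3 titled CON, with single-end reads of 50 bases on a BGISEQ500, per the labels' protocols. The deposited table gives TPM per gene and library, with the same sum in each, so depth is unknown and no counting interval is given. HISAT, Bowtie2 and GRCm38.p6, a mouse build, are named in the submitters' processing notes, although the identifiers are human: 17222 of 17280 matched human RefSeq genes. The sources used here give no versions and no handling of shared reads or strand.

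From these values, log2(TPM + 1) of genes averaging 1 TPM or more was fitted with limma 3.58.1 in R 4.3.3 (mean-variance trend, two-sided, Benjamini-Hochberg over 12195 genes, threshold 0.05). The pseudocount understates changes of low genes. The fit was tested on simulated data. An exact permutation test of 3 against 3 cannot go below 0.1, so none was run. Between libraries of a group 0.32 to 0.541% of tested values were identical, and all were kept. Promoter windows are RefSeq's (GRCh38.p14, matched by NCBI gene ID, with several starts for some genes) and were aligned with Biopython 1.88; transcripts are GENCODE release 29. Figures used matplotlib 3.10.9 in Python 3.11.15.

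The members and lists were chosen with earlier results of these data known. Named genes are the 10 members, every other tested chemokine ligand and receptor, and in each further list up to 4 called genes with the smallest adjusted p plus NFKB1, RELA, NFKBIA, TNFAIP3, IL1A, IL1B and ZFP36. Outside that rule, and with values seen, the text names untested markers, ligands beside the members and partner receptors below the filter. ADAM17, FOSB, FOSL1, CEBPD, RELB, NFKB2, REL, TNF, TRAF6 and IL1RN are named in the same way. The text also names the highest and lowest gene of a list in a caption, and the genes of the closing section. The 16 other settings were median-ratio scaling, quantile normalization, pseudocounts (0.1, 0.5), filters (none, 5 TPM), variance options of limma (no trend, robust, array weights), a replicate block and each library left out.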

Additional observations from a re-analysis of the deposited data

How the results depend on the processing

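Under all 16 alternatives the chemokines called numbered 7 to 9 (8 in the fit reported), and all calls 8711 to 11706 (10427). CXCL16 changed sign after median-ratio scaling (-0.0859) and quantile normalization (-0.14), and CCL28 after median-ratio scaling (-0.0825); all other settings kept the sign of every chemokine. Leaving out each library in turn gave 8 called chemokines every time and 10109 to 10376 calls in all. With the replicate number as a block, 10522 genes and 8 chemokines were called. Deviations from the group means correlated at 0.0476, 0.106 and 0.16 between same-numbered libraries. For each LF3 library this was its highest correlation with any CON library, the others lying between -0.17 and 0.0737. Only CON replicate 1 correlated best with a library of another number, LF3 replicate 2 (0.0737). Whether the numbers pair libraries is not settled by these low correlations, and the fit reported leaves them unpaired. A filter of 5 TPM left CCL28 untested along with CXCL5. TPM keeps no depth, so the counting error of low genes such as CXCL5 is unknown.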

Other observations

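Colony-stimulating factors and IL6, named here after their values were seen, stood among the cytokines higher in LF3. CSF2, a growth factor of granulocytes and macrophages, had 186, 189 and 209 TPM in LF3 and 50.1, 61.0 and 50.9 TPM in CON, with a log2 fold change of 1.84 ± 0.073. CSF1, the growth factor of macrophages, had 31.8 ± 3.89 TPM in LF3 and 5.82 ± 0.356 TPM in CON (SD, n = 3 each). IL6 had 25.8, 24.3 and 21.2 TPM in LF3 and 4.22, 4.14 and 3.43 TPM in CON, and CSF3, the granulocyte factor, lay below 1 TPM in every library. CDH5, an endothelial cadherin gene, had 5.93, 5.70 and 6.93 TPM in LF3 and 0.11 TPM in each CON library, while the other endothelial markers VWF, PECAM1 and KDR stayed at or below 0.32 TPM.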
